A study of Mus musculus with 3 samples.

Results

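Interferon-active cells were the 150 of 3470 cells (4.32%) with the highest share of UMIs (unique molecular identifiers, 1 per captured RNA molecule) from 8 interferon-stimulated genes, Ifit1, Ifit3, Isg15, Rsad2, Usp18, Rtp4, Irf7 and Oasl2. The score was the sum of their UMIs per 10000 gene UMIs of the cell. These cells are called members below, and the remaining 3320 cells are called other cells. All were Lin- Sca1+ ckit+ (LSK) bone marrow cells, the compartment that holds blood stem cells and multipotent progenitors, sorted from 2 mice labelled Helios-deficient and 2 labelled WT. A hashtag antibody per mouse (against CD45 and MHC class I) marked the origin of each cell in a single pooled droplet run, and oligonucleotide-tagged antibodies read CD41, CD48, CD150 and CD135, the Flt3 protein. The strain, age and sex of the mice, and the allele behind the Helios-deficient label, were not given in the sources used here. Helios, which Ikzf2 encodes, is a DNA-binding relative of Ikaros, and the design compares its loss with its presence in these cells.

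Type I interferons signal through the receptor chains Ifnar1 and Ifnar2 and the kinases Jak1 and Tyk2 to a transcription factor complex that includes Stat2 and Irf9. This complex binds a DNA element, the interferon-stimulated response element (ISRE), in front of many antiviral genes. Ifit1 and Ifit3 encode proteins that bind viral RNA, Isg15 a ubiquitin-like modifier, Rsad2 the antiviral enzyme viperin, and Oasl2 a member of the oligoadenylate synthetase family. Usp18 removes Isg15 from proteins and dampens receptor signalling, Rtp4 is an interferon-induced antiviral protein, and Irf7 is a transcription factor that amplifies interferon production. In LSK cells, interferon is known to push dormant stem cells into division and to raise Sca-1, which Ly6a encodes.

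Promoter windows of the rule genes are shown because the cells were chosen on these genes together. RefSeq windows on GRCm38.p6 (from 250 bases before to 50 bases after the start) were at hand for 6 of the 8 genes, all but Usp18 and Rtp4. The 250 bases before the start of the 4 genes with an ISRE core are given 5′ to 3′ on the gene's strand, with the core in capitals. The core searched was GAAANNGAAA, or TTTCNNTTTC on the other strand.
Ifit1 (chr19:34640639-34640888, plus strand): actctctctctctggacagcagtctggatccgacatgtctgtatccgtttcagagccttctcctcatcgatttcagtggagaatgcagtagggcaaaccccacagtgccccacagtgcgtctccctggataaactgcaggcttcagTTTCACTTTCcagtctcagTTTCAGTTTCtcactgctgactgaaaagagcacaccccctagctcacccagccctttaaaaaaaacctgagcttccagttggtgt
Ifit3 (chr19:34583279-34583528, plus strand): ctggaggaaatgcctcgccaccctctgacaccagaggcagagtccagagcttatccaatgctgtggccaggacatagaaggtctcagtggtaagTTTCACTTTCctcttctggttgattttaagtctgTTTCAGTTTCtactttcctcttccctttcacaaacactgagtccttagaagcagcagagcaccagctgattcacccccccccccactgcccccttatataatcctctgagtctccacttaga
Isg15 (chr4:156200819-156201068, minus strand): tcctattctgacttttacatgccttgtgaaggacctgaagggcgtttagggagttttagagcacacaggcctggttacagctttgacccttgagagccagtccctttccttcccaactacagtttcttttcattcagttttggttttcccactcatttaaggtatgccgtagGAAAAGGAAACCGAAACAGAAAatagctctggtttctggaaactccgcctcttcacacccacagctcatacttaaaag
Rsad2 (chr12:26456453-26456702, minus strand): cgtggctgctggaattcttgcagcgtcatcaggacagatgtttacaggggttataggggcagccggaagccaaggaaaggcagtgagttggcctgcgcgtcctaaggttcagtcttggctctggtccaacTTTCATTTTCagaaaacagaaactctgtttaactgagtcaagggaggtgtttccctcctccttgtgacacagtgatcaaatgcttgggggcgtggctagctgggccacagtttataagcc
The matches began 104 and 85 bases before the start of Ifit1, 156 and 122 bases before that of Ifit3, 78, 72 and 66 bases before that of Isg15 (overlapping one another) and 120 bases before that of Rsad2. The Irf7 and Oasl2 windows held no match to these letters. Among all 27025 genes with a window, 3.99% held at least 1 core and 0.266% held 2 or more. The GAS motif of interferon gamma signalling, TTCNNNGAA (the same on both strands), stood in none of the 6 rule gene windows and in 9.55% of all genes.

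The score chose the members, so the levels of the 8 genes are a description. Scores in members ran from 14.2 to 123.7 with a median of 20.8, against a median of 1.48 in other cells, 993 of which held no UMI of the 8 genes. The last cell inside the limit scored 14.202 (8 rule gene UMIs of 5633) and the first outside 14.149 (9 of 6361). A single UMI less would have put 24 members under the limit, and a single UMI more would have lifted 33 other cells over it, so the limit cuts through a continuous range. Members had a median of 6109 gene UMIs, against 8033 in other cells. For that reason values in other cells of the same mouse with a UMI total within 10% of each member's are given beside the main ones and are called UMI-matched. A median of 127.5 such cells was found per member, and 1 member had none. The part of depth in the results was not tested beyond these matched values.

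All 150 members held Rtp4 UMIs, 130 held Isg15, 114 each held Ifit1 and Oasl2, 103 held Irf7, 76 held Usp18, 66 held Rsad2 and 36 held Ifit3. The number of rule genes found in a member ranged from 2 to 8, with 11 members holding all 8. No cell type known to lack these genes was in the sort, so the share of cells with a UMI from free RNA was not measured. Ifit1 stood at 443 and 515 CPM (UMIs of the gene per 1000000 UMIs of the summed cells) in Helios-deficient members and 625 and 220 CPM in wild-type members, against 10.0 to 12.3 CPM in the other cells of the 4 mice. Isg15 stood at 566 and 642 CPM in Helios-deficient members and 620 and 251 CPM in wild-type members, against 33.8 to 47.5 CPM in other cells. Rtp4 was the most even, with 660 and 752 CPM in Helios-deficient members and 761 and 814 CPM in wild-type members, against 79.8 to 97.4 CPM in other cells. Wild-type mouse 2 had the lowest member level of 6 of the 8 genes, all but Rtp4 and Irf7. For none of the 8 genes did the CPM per mouse overlap between members and other cells, which follows from the choice of members on these genes. Single other cells also held them, with Rtp4 UMIs in 1362 (41.0%), Oasl2 in 845 (25.5%) and Isg15 in 830 (25%).

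**Figure D1:**
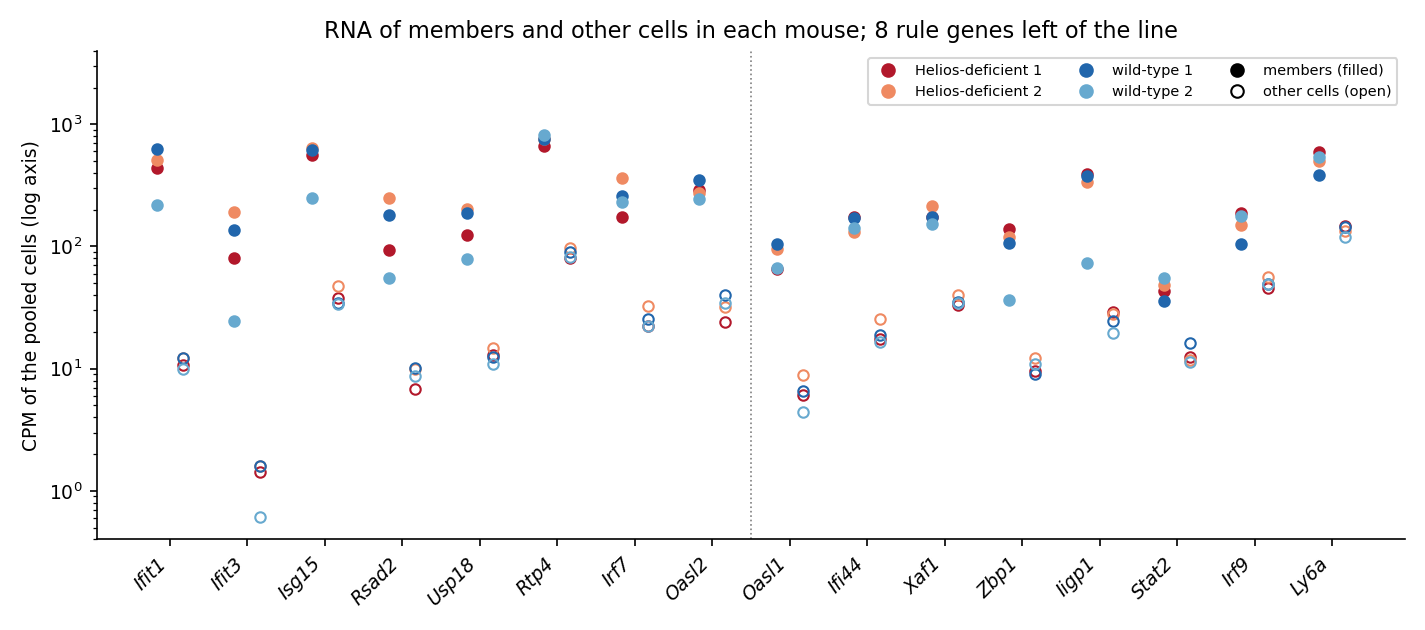
Each point is the CPM (log axis) of a gene summed over members (filled) or other cells (open) of 1 mouse, with the 8 rule genes left of the dotted line and 8 further genes right of it. In every mouse and for every gene shown the members lie above the other cells, and wild-type 2 has the lowest member value for Ifit1, Isg15, Iigp1 and Zbp1.

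Genes that the score did not use were read in the same cells. Expression was compared as the mean CPM over the 4 mice, each weighted equally, with no test because the cells were chosen on their RNA. Of 6101 genes with at least 20 CPM in either group, 50 (0.82%) were at least 2-fold higher in members in all 4 mice. A gene that reached 20 CPM only in members could by its mean only come out higher, and 1 that reached it only in other cells only lower. The counts here and for the lists below are therefore in part set by this limit. With 1 mouse left out fewer mice have to agree, and the number was 52 to 78, the most without wild-type mouse 2. Of the 50 genes, 36 belong to the 3 interferon lists (interferon-stimulated genes, GTPases and signalling), and 44 were also 2-fold higher against UMI-matched cells by the mean over mice. Another 62 genes (1.02%) were at least 2-fold lower in members in all 4 mice, 19 of them on the S phase or G2 and M phase lists. With 1 mouse left out the number of lower genes was 72 to 97, the most without Helios-deficient mouse 2. Of these 62, 24 were also 2-fold lower against UMI-matched cells, and the median log2 ratio of those with UMIs in members was -2.44 against other cells and -0.77 against UMI-matched cells.

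The list of further interferon-stimulated genes held 54 genes at or above 20 CPM. Of these, 25 were 2-fold higher in members in all 4 mice, none was 2-fold lower, and the list's median log2 ratio was 1.53, against 0.01 over the 6101 genes. Some of the 54, such as Ifit3b and Mx1, reached 20 CPM only in members, which raises this count and median. The largest ratio was that of Ifit3b, at 54.8 ± 45.8 CPM in members and 0.293 ± 0.083 CPM in other cells (SD, n = 4 mice). Ifit3b is a near copy of the rule gene Ifit3, so reads may have been split between them. Mx1, an antiviral GTPase of the dynamin family, stood at 23.3 ± 18.2 CPM in members and 0.670 ± 0.417 CPM in other cells, and its 27 UMIs came from 19 members. Oasl1, a relative of Oasl2, was 12.9-fold higher, at 65.3 and 96.2 CPM in Helios-deficient members and 105 and 67.3 CPM in wild-type members, against 4.39 to 8.85 CPM in other cells. Zbp1, a sensor of left-handed nucleic acid that can trigger cell death, was 9.65-fold higher, at 138 and 120 CPM in Helios-deficient members and 107 and 36.7 CPM in wild-type members, against 8.97 to 12.2 CPM in other cells. Ifi44 was the more even of these, with 131 to 174 CPM in members and 16.5 to 25.5 CPM in other cells. Cmpk2, a mitochondrial nucleotide kinase, and Oas3, which makes oligoadenylates when it meets double-stranded RNA, were 6.56-fold and 6.39-fold higher.

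The cytosolic RNA sensors Ddx58 (RIG-I) and Dhx58 (LGP2) were 3.64-fold and 5.25-fold higher by the mean over mice, and at least 2-fold higher in all 4. Eif2ak2, the kinase PKR that halts translation on double-stranded RNA, was 2.66-fold higher. Xaf1, a proapoptotic gene, stood at 174 and 213 CPM in Helios-deficient members and 174 and 153 CPM in wild-type members, against 35.7 ± 2.94 CPM in other cells (mean ± SD, n = 4 mice). Slfn5, Slfn2 and Slfn8 of the Schlafen family were 8.23-fold, 4.71-fold and 3.85-fold higher, and Parp14, Parp9 and Parp12, which attach ADP-ribose, were 4.34-fold, 4.01-fold and 3.45-fold higher. Not every listed gene was far apart: Ly6e stood at 1104 CPM in members and 692 CPM in other cells, Sp110 at 130 and 117 CPM, and Lgals9 at 154 and 182 CPM. Ifi206 and Ifi213, DNA-binding proteins of the PYHIN family outside the lists, were 16.7-fold and 16.8-fold higher, and Serpina3f, a protease inhibitor gene, was 12.1-fold higher. These families have near-identical copies, so single-gene values are uncertain where reads could be split.

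Cxcl10, a chemokine that draws activated T cells, was carried by few cells. It stood at 515 and 110 CPM in Helios-deficient members and 63.8 and 0 CPM in wild-type members, against 0.244 to 3.63 CPM in other cells. Its 128 UMIs came from 12 members, and 56 of them from 1 cell of Helios-deficient mouse 1. Ifit1bl1, a relative of Ifit1, also had 0 UMIs in the members of wild-type mouse 2, with 27.5 to 56.2 CPM in members of the other 3 mice, against 0.504 to 1.07 CPM in other cells.

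The interferon-inducible GTPases, which attack the vacuoles of intracellular parasites and bacteria, held 11 genes at or above 20 CPM, and 8 of these were 2-fold higher in all 4 mice. Iigp1, of the immunity-related GTPase family, stood at 392 and 340 CPM in Helios-deficient members and 378 and 73.4 CPM in wild-type members, against 19.8 to 29.3 CPM in other cells. Gm4951, of the same family, was 14.6-fold higher, with 247 and 182 CPM in Helios-deficient members and 112 and 97.9 CPM in wild-type members, against 6.34 to 14.8 CPM in other cells. Members of wild-type mouse 2 were the lowest for both genes, yet did not overlap with other cells. Igtp, Irgm1 and Irgm2 were 4.76-fold, 3.92-fold and 5.21-fold higher, and the guanylate-binding protein gene Gbp2 was 3.04-fold higher. Tgtp1 and Tgtp2, near-identical copies, were 5.55-fold and 3.68-fold higher. Gbp4 and Gbp6 had 11 and 8 UMIs in all members together and were not found in the members of 1 mouse each. Summed over the list, the GTPases stood at 740 to 1618 CPM in the members of the 4 mice and 242 to 297 CPM in their other cells, with a mean of 372 CPM in UMI-matched cells.

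Of the signalling list, 3 of 16 genes were 2-fold higher in all 4 mice, Stat2 and Irf9 of the transcription factor complex among them. Irf9 stood at 189 and 151 CPM in Helios-deficient members and 105 and 177 CPM in wild-type members, against 46.1 to 56.6 CPM in other cells. It was 3.09-fold higher, with no overlap, and Stat2 was 3.52-fold higher. Socs1, an inhibitor of the receptor kinases, had a log2 ratio of 1.72, with 12.2 CPM in members of wild-type mouse 2 and 11.8 CPM in its other cells. The receptor and kinase genes were nearer to equal, with log2 ratios of 0.83 for Ifnar1, -0.06 for Ifnar2, 0.36 for Ifngr1, 0.31 for Jak1 and -0.06 for Tyk2. Of the interferon genes listed, Ifnb1, Ifng, Ifna4 and Ifnl3 had 0 UMIs in members and in other cells. In the members' 984126 UMIs a count of 0 allows up to 3.05 CPM. Of the nucleic acid sensing list none of 10 genes was 2-fold apart in all mice, with Samhd1, which degrades nucleotides, at a log2 ratio of 0.95.

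The windows of the genes that were higher were searched in the same way. Of the 50 genes, 37 had a window, and 20 of these (54.1%) held an ISRE core, against 4.34% of the 4859 genes with a window among the 6101. Of the 62 lower genes, 51 had a window and 2 of these (3.92%) held one. GAS was found in 8 of the 37 (21.6%), against 8.19% of the 4859. A match is a run of letters and not a shown binding site.

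The level of the further interferon-stimulated genes ran along the score and did not step at its limit. Summed over the list, cells ranked 1 to 50 stood at 9503 ± 1006 CPM, the next 50 members at 5512 CPM and the last 50 at 4489 CPM (SD, n = 4 mice). The first of these values rests on few cells in some mice, with 6 and 16 cells in Helios-deficient mice and 26 and 2 cells in wild-type mice. Just outside, the next 150 cells stood at 4079 CPM and the 300 after them at 3448 CPM, and cells with a score of 0 stood at 2349 CPM. Per cell, members ran from 15.1 to 212 UMIs of these genes per 10000, with a median of 48.6, against a median of 26.2 in other cells. 84 of the 150 members lay above the 95th percentile of the other cells. The GTPases stood at 1798, 998 and 1065 CPM in the same 3 groups of members, at 625 CPM in the next 150 cells and at 208 CPM at a score of 0. In the group with 1065 CPM, Helios-deficient mouse 1 stood at 2098 CPM (8 cells) and the other mice at 625 to 844 CPM. Within members, 67 cells held both Ifit1 and Iigp1, 47 only Ifit1, 16 only Iigp1 and 20 neither.

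**Figure D2:**
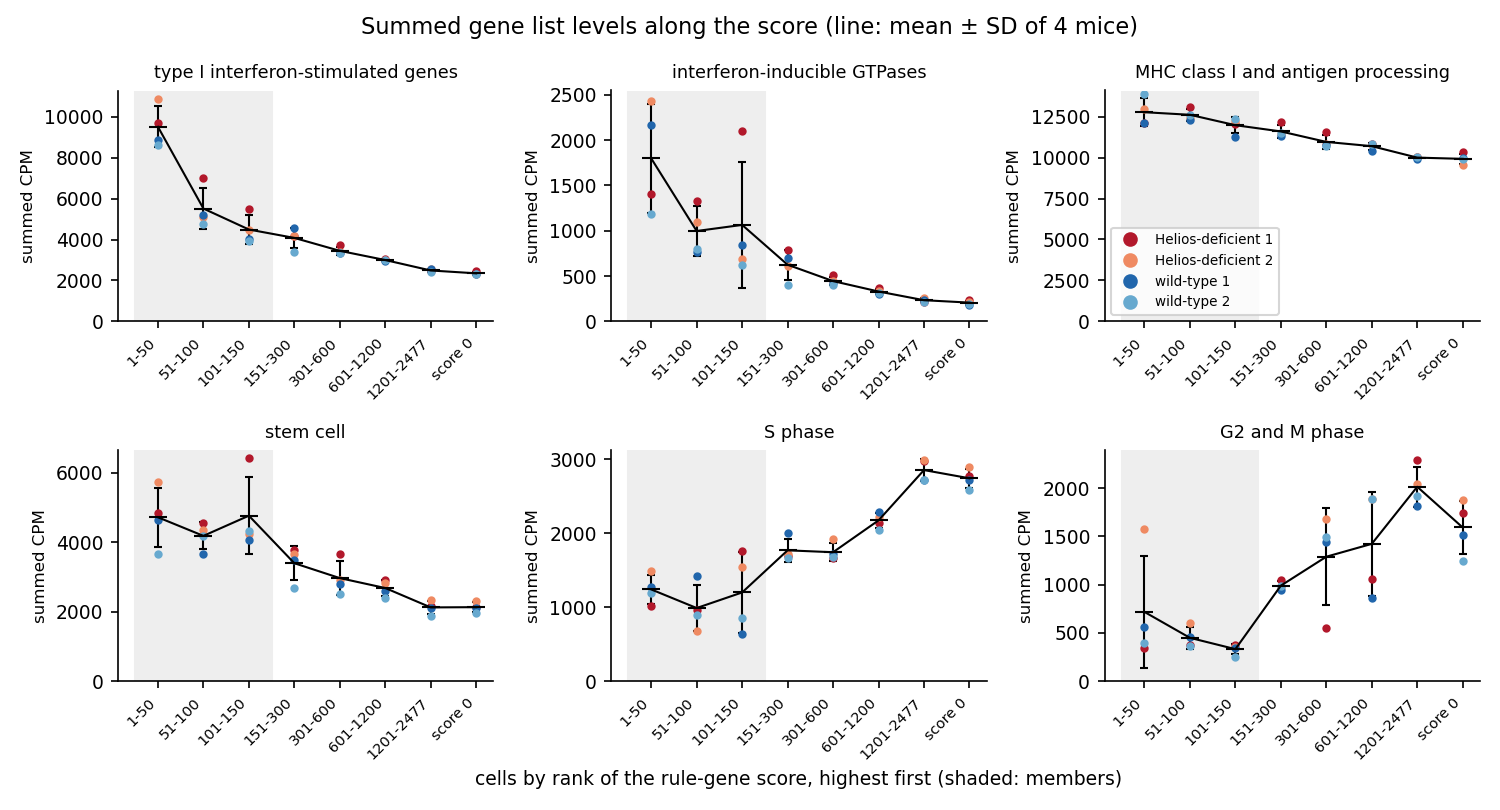
Summed CPM (linear axis from 0) of 6 gene lists in cells binned by rank of the score, with points for mice, a line and bars for the mean ± SD of 4 mice, and the members shaded. The list of further interferon-stimulated genes stands at 9503 CPM in ranks 1 to 50 and at 2349 CPM at a score of 0, without a break at rank 150, whereas the cell cycle lists are lower in members.

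Genes of antigen presentation differed less. MHC class I and its peptide loading genes, also known interferon targets, had no gene of 21 that was 2-fold higher in all mice, although 10 were higher in all 4, against 880 of the 6101 genes (14.4%). B2m, the light chain of MHC class I, stood at 5009 CPM in members and 3901 CPM in other cells, and the nonclassical genes H2-T23 and H2-T22 both had a log2 ratio of 0.88. Tap1 and Tap2, the 2 chains of the peptide transporter, had log2 ratios of 0.57 and -0.11. Of the MHC class II list, 3 of 6 genes were 2-fold higher in all mice. H2-Aa stood at 112 ± 21.6 CPM in members, 40.2 ± 8.81 CPM in other cells and 72.9 CPM in UMI-matched cells, and Cd74, its invariant chain partner, at 260 ± 91.9, 99.1 ± 18.4 and 183 CPM in the same groups. Against UMI-matched cells the log2 ratios of H2-Aa, H2-Eb1 and Cd74 were thus 0.62, 0.84 and 0.51.

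Ly6a, which encodes the Sca-1 antigen used for the sort, stood at 595 and 501 CPM in Helios-deficient members and 388 and 538 CPM in wild-type members, against 120 to 146 CPM in other cells. It was 3.71-fold higher, with no overlap, and had a log2 ratio of 1.33 against UMI-matched cells. Kit, the other gene of the sort, stood at 85.9 to 105 CPM in members and 82.3 to 94.4 CPM in other cells. Ifitm3, which blocks virus entry at endosomes, stood at 2360 ± 634 CPM in members and 1049 ± 185 CPM in other cells, while its neighbour Ifitm2 stood at 1108 CPM in members and 1016 CPM in other cells.

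The cell cycle lists were lower in members, and by less against UMI-matched cells. All 21 genes of G2 and M phase at or above 20 CPM were lower in all 4 mice, against 1077 of the 6101 genes (17.7%), and 13 were 2-fold lower. Their sum stood at 363 and 920 CPM in Helios-deficient members and 472 and 312 CPM in wild-type members, against 1484 to 1899 CPM in other cells. UMI-matched cells had 630 CPM, which left a log2 ratio of -0.29 where it had been -1.73. For S phase, 22 of 23 genes were lower in all 4 mice and 6 were 2-fold lower, with sums of 1153 ± 182 CPM in members, 2591 ± 114 CPM in other cells and 1426 CPM in UMI-matched cells. Rrm2, which makes nucleotides for replication, had 6 UMIs in all members and stood at 0 to 12.2 CPM, against 71.7 to 92.7 CPM in other cells and a mean of 21.2 CPM in UMI-matched cells. Hmmr, Plk4 and Aurkb, which act on the spindle and centrosome, had 2, 3 and 6 UMIs in members. When the score was computed after thinning every cell to 3000 UMIs, the number of genes 2-fold lower was 12 and not 62.

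Of the granulocyte and monocyte list, 4 of 15 genes were 2-fold lower in all 4 mice (1.02% over the 6101 genes), namely Ctsg, Mpo, Ms4a3 and Ly6c2. The list did not fall as a whole, with 7 genes lower in all mice, 1 higher and a median log2 ratio of -0.13. Prtn3 of the list stood at 871 and 659 CPM in Helios-deficient members and 654 and 385 CPM in wild-type members. In other cells of the same mice it stood at 892, 797, 605 and 562 CPM. Ctsg, a granule protease, stood at 0 and 3.43 CPM in Helios-deficient members and 7.66 and 0 CPM in wild-type members, against 199 and 186 CPM in Helios-deficient other cells and 73.2 and 62.8 CPM in wild-type other cells, with a mean of 25.1 CPM in UMI-matched cells. Elane, also a granule protease, was 2-fold lower in 3 of 4 mice, had 4 UMIs in members and stood at 4.84 ± 2.21 CPM, against 93.5 ± 74.6 CPM in other cells and 14.2 CPM in UMI-matched cells. Mpo, the granule peroxidase, was 2-fold lower in all mice, at 59.4 ± 40.6 CPM in members and 339 ± 62.8 CPM in other cells, and its log2 ratio to UMI-matched cells was -1.02. Ly6c2, a surface gene of monocytes, had 0 UMIs in members, and by the floor of 3 UMIs over all members it was at least 16.9-fold lower than in other cells. Ly6c2 stood at 51.6 CPM in other cells and at 5.80 CPM in UMI-matched cells, near the floor of 3.05 CPM. The sum of the list stood at 3797 ± 556 CPM in members, 4113 ± 432 CPM in other cells and 3295 CPM in UMI-matched cells, so it was lower in members than in other cells and higher than in UMI-matched ones.

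The megakaryocyte and erythroid list was lower in members, also against UMI-matched cells, with sums of 914 ± 205 CPM in members, 1474 ± 231 CPM in other cells and 1323 CPM in UMI-matched cells, although none of its 14 genes at or above 20 CPM was 2-fold lower in all mice. Below that level counts were low, with 1 UMI of Mfsd2b, 2 of Gp5 and 3 of Cavin2 in all members, so no genes were counted as lower there. Car1, a carbonic anhydrase of erythroid progenitors, was 2-fold lower in 3 of 4 mice, had 6 UMIs in members and stood at 4.27 ± 5.12 CPM, against 68.5 ± 40.1 CPM in other cells and 21.2 CPM in UMI-matched cells. Gata1 and Klf1, erythroid transcription factors, had 0 UMIs in members, 14.9 and 10.3 CPM in other cells and 7.67 and 4.94 CPM in UMI-matched cells. Pf4, a platelet chemokine, stood at 52.6 CPM in members, 176 CPM in other cells and 66.7 CPM in UMI-matched cells.

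The stem cell list was higher in members, at 4633 ± 542 CPM against 2320 ± 197 CPM in other cells and 3189 CPM in UMI-matched cells. Most of this sum came from Ifitm3 and Ly6a, and Ly6a was the only 1 of 18 genes that was 2-fold higher in all mice. Hlf, Mecom and Procr, transcription regulators and a receptor used as stem cell markers, had log2 ratios of 0.72, 0.63 and 0.80 to other cells and of 0.10, 0.07 and -0.08 to UMI-matched cells. Meg3, an imprinted RNA, stood at 210 and 3.43 CPM in Helios-deficient members and 12.8 and 220 CPM in wild-type members, so its mean rests on 1 mouse of each genotype. The lymphoid priming list had no gene of 16 that was 2-fold apart in all mice. Dntt, the nucleotide-adding enzyme of early lymphoid cells, stood at 421 CPM in members and 237 CPM in other cells. Ltb of the list stood at 290 CPM in members, 141 CPM in other cells and 270 CPM in UMI-matched cells. Jchain and Ighm had log2 ratios of -4.67 and -1.46 to other cells, and of 0.22 and 0.44 to UMI-matched cells. The list's sum was 3234 ± 859 CPM in members, 2737 ± 1101 CPM in other cells and 2652 CPM in UMI-matched cells. In other cells it was 4355 CPM in wild-type mouse 1 and 1909 to 2438 CPM in the remaining mice. Of the death and stress list, Zbp1 was 2-fold higher in all mice, 1 of 13 genes, and Casp4, a caspase that senses bacterial lipid, had a log2 ratio of 1.47.

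**Figure D3:**
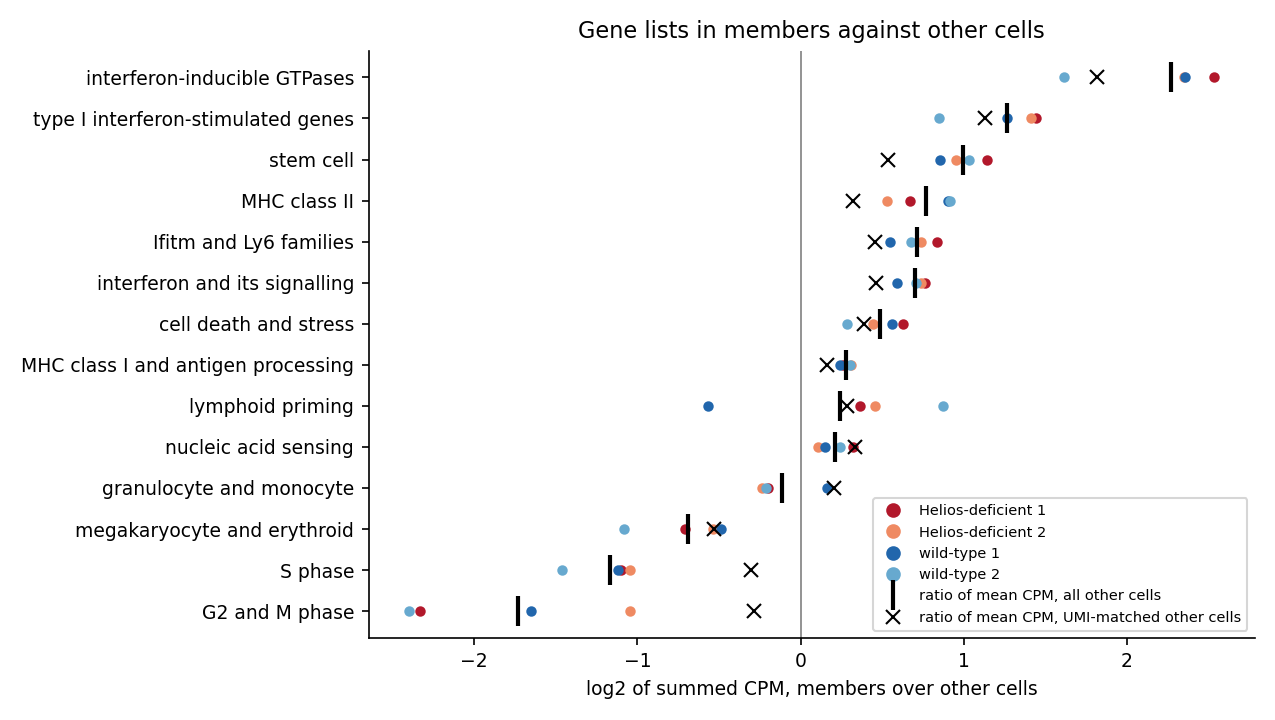
The log2 ratio of summed CPM, members over other cells, for 14 gene lists, with points for mice, bars for the ratio of means over all other cells and crosses for the ratio to UMI-matched other cells. The crosses of the GTPases (1.82) and the further interferon-stimulated genes (1.13) stay near their bars, whereas those of S phase (-0.31) and G2 and M phase (-0.29) lie near 0.

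Markers of mature cells were looked up in members. The 10 macrophage markers summed to 0 to 24.5 CPM in members and 27.9 to 62.8 CPM in other cells, 138 of 150 members had none, and Adgre1, Cd5l and Vcam1 were at 0. Of the 6 neutrophil markers 5 were at 0, and the sum was 0 to 5.11 CPM in members and 3.20 to 16.5 CPM in other cells. The B cell markers Cd79a and Ms4a1 and the T and NK cell markers Cd3e, Klrd1 and Gzma were at 0. The 6 B cell markers summed to 239 to 373 CPM in members, mostly Ighm, and to 175 to 6125 CPM in other cells. The T and NK sum, almost all Nkg7, was 138 to 206 CPM in members and 239 to 289 CPM in other cells. The plasmacytoid dendritic cell sum was 465 to 574 CPM in members and 273 to 315 CPM in other cells, almost all from Bst2 (itself an interferon-stimulated gene) and Tcf4, while Siglech was at 0. Hemoglobin RNA came from 1 cell, which held 132 of the 135 Hbb-bs UMIs and 52 of the 55 Hba-a1 UMIs of all members and belonged to wild-type mouse 2. At least 2 UMIs of mature markers outside Nkg7 and Cd79b were held by 5 members (3.33%) and 347 other cells (10.5%). Of the LSK markers, Kit stood at 94.2 CPM in members and 89.3 CPM in other cells, and Cd34 at 554 CPM in members and 444 CPM in other cells. Ly6a (Sca-1) is itself interferon-inducible and does not check the label in cells chosen on interferon genes.

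At the cell surface the tags were compared as the mean of log2(tag UMIs + 1), members minus other cells within each mouse, with an exact sign-flip permutation test over the 4 mice (two-sided, smallest possible p 0.125). The CD48 tag, a marker of progenitors that have left the stem cell state, was lower in members in 4 of 4 mice, with differences of -0.42 and -0.14 in Helios-deficient mice and -0.43 and -0.31 in wild-type mice. The mean was -0.32 ± 0.13 (SD, n = 4 mice, exact p = 0.125, 0.312 after Benjamini-Hochberg adjustment over 5 tags). Against UMI-matched cells it was 0.01 ± 0.18, higher in 2 mice and lower in the other 2. Without cells holding mature cell transcripts, the CD48 difference from other cells was -0.02 (exact permutation p = 0.875), and when Nkg7 and Cd79b were not counted among those transcripts it was -0.26 (exact permutation p = 0.125). The mouse's own hashtag differed by -0.18 ± 0.04 (exact p = 0.125, lower in 4 of 4 mice), and by -0.01 ± 0.06 against UMI-matched cells. CD150, CD41 and CD135 differed by -0.06 ± 0.07, -0.06 ± 0.08 and 0.02 ± 0.12, with adjusted exact permutation p-values of 0.469, 0.417 and 0.875. The smallest p of this design cannot pass 0.05. As a share of the cell's tag UMIs, CD135, CD150 and CD41 were 0.19, 0.12 and 0.11 higher in members and CD48 was 0.15 lower (log2, exact permutation p = 0.125 for each).

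The RNA of the tag targets stood at 155 CPM in members and 185 CPM in other cells for Cd48, 225 and 126 CPM for Flt3 and 4.91 and 6.30 CPM for Slamf1 (CD150). Itga2b (CD41) stood at 12.2 to 25.5 CPM in members and 40.6 to 48.7 CPM in other cells. Flt3 RNA was thus higher in members, at a log2 ratio of 0.51 against UMI-matched cells, and its protein tag was higher in 2 of 4 mice by tag UMIs.

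**Figure D4:**
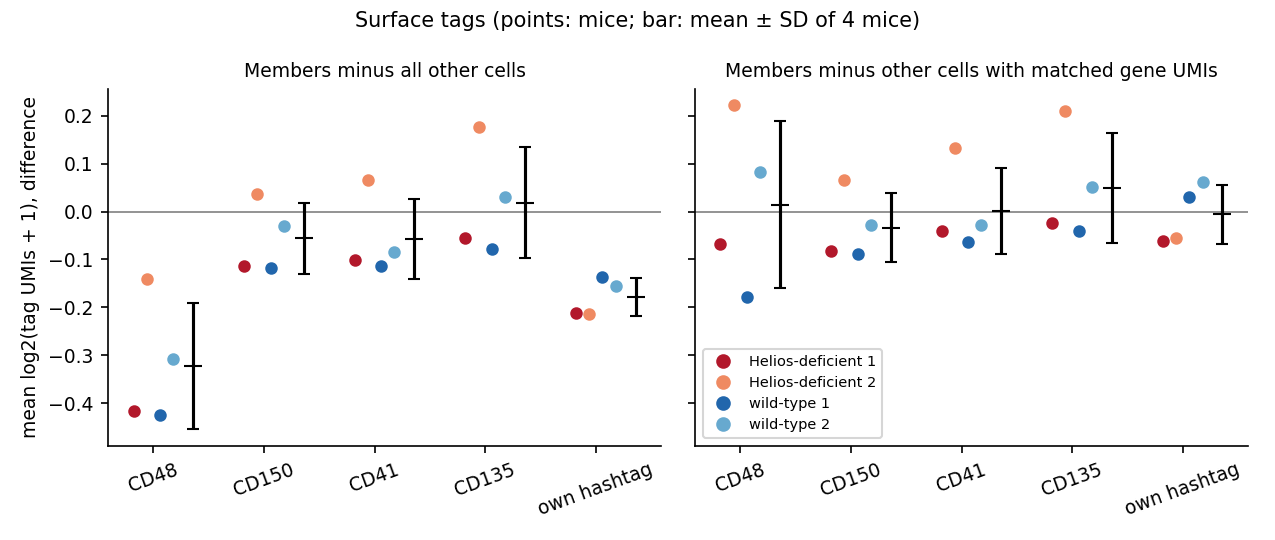
Differences in mean log2(tag UMIs + 1), members minus all other cells (left) and members minus UMI-matched other cells (right), with points for mice and the mean ± SD of 4 mice beside them. CD48 and the hashtag lie under 0 in all 4 mice on the left and spread around 0 on the right.

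The targeted gene did not check the labels. Ikzf2 stood at 102 and 92.7 CPM in Helios-deficient members and 89.4 and 91.8 CPM in wild-type members, which gave a log2 change of 0.08 with an SE of 0.30 (adjusted p = 0.997 by edgeR). In other cells it stood at 73.0 and 82.4 CPM in Helios-deficient mice and 69.8 and 67.2 CPM in wild-type mice. The deposited counts come from a 3′ library, and whether the tag lies in the altered part of the gene was not given in the sources used here. Genotype below is therefore that of the labels.

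By genotype, the share of members did not separate the mice. Members were 20 of 557 cells (3.59%) and 41 of 824 cells (4.98%) in the mice labelled Helios-deficient, and 60 of 1175 (5.11%) and 29 of 914 (3.17%) in the wild-type mice. The exact binomial 95% intervals of the 4 mice overlap, from 2.21% to 5.49%, 3.59% to 6.69%, 3.92% to 6.52% and 2.14% to 4.53%, and cover counting error only. The means were 4.28% ± 0.98 in Helios-deficient mice and 4.14% ± 1.37 in wild-type mice (SD, n = 2 mice each), a difference of 0.14 percentage points (exact permutation p = 1, two-sided, smallest possible 0.333). Over all cells the 8 genes summed to 250 and 350 CPM in Helios-deficient mice and 336 and 237 CPM in wild-type mice, with overlap.

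Genotype was tested in members with edgeR's quasi-likelihood test on UMIs summed per mouse, and 5 of 3525 genes (0.142%) passed an adjusted p of 0.05, 2 higher and 3 lower in Helios-deficient members. In other cells 153 of 11553 genes (1.32%) passed. None of the 8 rule genes passed in either fit. Because the cells were split on these genes, neither fit can tell whether genotype changes them. In members the log2 fold changes of the 8 genes ran from -0.16 for Oasl2 to 0.61 for Ifit3 (SE 0.79). The further interferon-stimulated genes had 44 genes tested, with 1 that rose, none that fell and a median log2 fold change of 0.18, against -0.004 over all genes tested.

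Ifi27l2a, an interferon-stimulated gene of the mitochondrial ISG12 family, rose in Helios-deficient members, at 131 and 216 CPM, against 58.7 and 48.9 CPM in wild-type members (log2 fold change 1.71, SE 0.31, edgeR adjusted p = 0.0078). In other cells it stood at 30.0 and 43.3 CPM in Helios-deficient mice and 37.5 and 32.6 CPM in wild-type mice. Its 112 member UMIs came from 43 cells, with 14 in the highest. The call was lost without Helios-deficient mouse 2 (adjusted p = 0.47) or without wild-type mouse 1 (0.13), and the log2 fold change was 0.37 with 300 members and 0.29 without cells holding mature cell transcripts. Ifitm3 rose to 3033 and 2710 CPM in Helios-deficient members, against 2083 and 1615 CPM in wild-type members (log2 0.58, SE 0.10, edgeR adjusted p = 0.0078), and also rose in other cells (log2 0.43, SE 0.05). The call held without each mouse in turn and was lost under 6 of 16 alternatives.

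Acadl, a mitochondrial fatty acid dehydrogenase, fell in Helios-deficient members, at 36.3 and 27.5 CPM, against 153 and 116 CPM in wild-type members (log2 -2.20, SE 0.37, edgeR adjusted p = 0.0054). It also fell in other cells (log2 -1.06, SE 0.09), and the gene lies 2.67 Mb from Ikzf2 on chromosome 1 (RefSeq, GRCm38.p6). Ctse, an aspartic protease, fell in Helios-deficient members, at 7.26 and 17.2 CPM, against 86.8 and 79.5 CPM in wild-type members, and at a similar size in other cells (log2 -2.57, SE 0.51 in members and -2.82, SE 0.13 in other cells). Acadl lost its call without Helios-deficient mouse 2 (0.061) or wild-type mouse 1 (0.36), and Ctse without wild-type mouse 1 (0.90). DESeq2 called 0 genes in members, with 24 of 12386 at an unadjusted p under 0.05, against 181 of 3525 by edgeR. Without its filter edgeR had 393 of the same 12386, so the filter does not account for the gap.

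**Figure D5:**
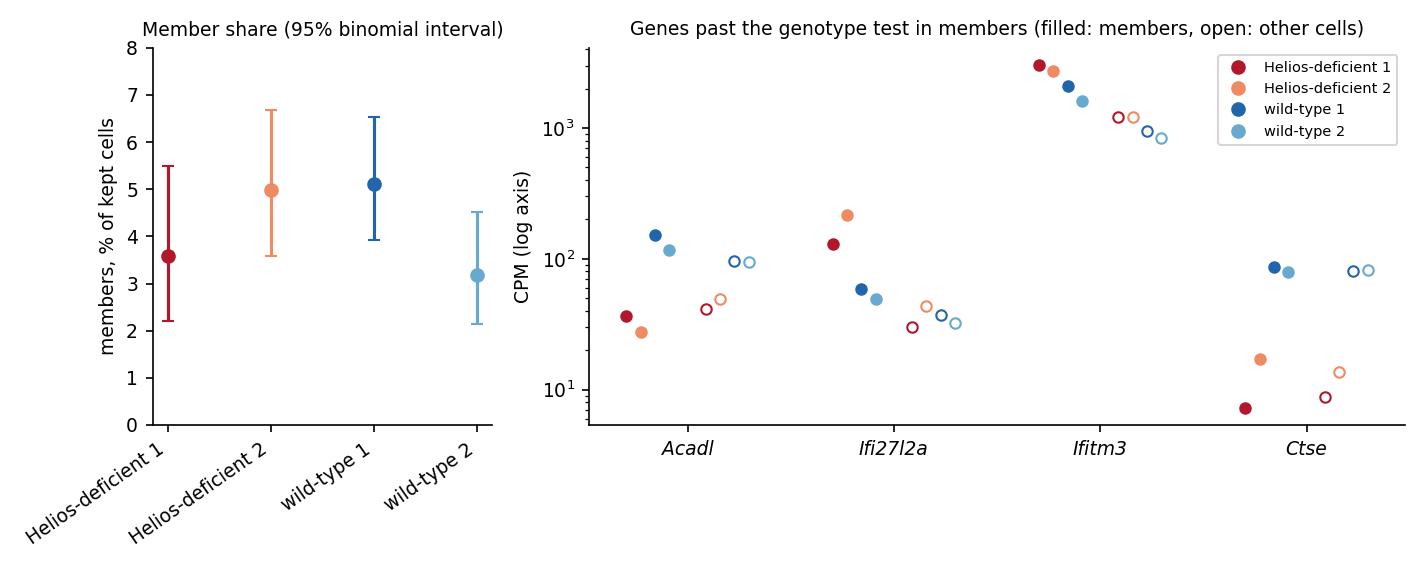
Left, the share of kept cells that were members in each mouse with its exact 95% binomial interval, from 3.17% to 5.11%. Right, CPM (log axis) of 4 genes past the genotype test in members, with points for mice, members filled and other cells open. Ifi27l2a separates the genotypes in members and not in other cells.

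Whether the genotype difference differed between members and other cells was tested as an interaction in edgeR, with the mouse as a block. It called 4 of 10843 genes (0.0369%), Ube2c, Cxcl10, Ifi27l2a and Actb, all with a positive difference. For Ifi27l2a the genotype difference in members minus that in other cells was 1.63 (log2, SE 0.35, adjusted p = 0.011), and the call was lost without Helios-deficient mouse 2 and without either wild-type mouse. Ube2c, a mitotic ubiquitin-conjugating enzyme, had 29 member UMIs, 26 of them in 1 cell of Helios-deficient mouse 2. Its difference was 4.75 (SE 0.92), was -6.29 without that mouse, and lost its call without either wild-type mouse too. For Cxcl10 the difference was 3.23 (SE 0.69), and without Helios-deficient mouse 1, which held the cell with 56 UMIs, its adjusted p was 1. It was 0.99 without wild-type mouse 1. Actb had a difference of 0.42 (SE 0.09) at 2801 and 2507 CPM in Helios-deficient members, against 2058 and 2050 CPM in wild-type members, and lost its call when any 1 of the 4 mice was left out. Flt3, which fell in Helios-deficient other cells (log2 -0.57, SE 0.07, edgeR adjusted p = 3.9e-05), had a log2 fold change of -0.16 (SE 0.24) in members, and its interaction did not pass (adjusted p = 1). DESeq2 called 0 genes for the interaction, with 58 of 16577 at an unadjusted p under 0.05, against 381 of 10843 by edgeR and 393 of 16577 by edgeR without its filter.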

How the data were processed

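UMI counts for 31053 genes, 4 surface tags and 4 hashtags in 4108 barcodes were used as deposited, raw and whole, per the file headers and values. The submitters' processing notes name Cell Ranger, Seurat 3.0.0 and mm10. The authors' hashtag calls and their list of 3470 kept cells were taken as given. Doublets between mice were removed by those calls, and no doublet caller was run. No barcode was listed more than once. The replicate was the mouse (n = 2 per genotype), all from 1 run. The exact permutation p-values rest on the differences between these mice. The edgeR p-values also use a variance estimated in part over all genes, and do not separate the spread between mice from that between the cells summed in each.

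Gene UMIs totalled 5729987 and 8424677 in Helios-deficient mice and 10317599 and 8364109 in wild-type mice, and 137816, 291177, 391690 and 163443 in the members of the same mice. Genes were called in edgeR 4.0.16 (R 4.3.3; quasi-likelihood, robust, TMM, default low-count filter, Benjamini-Hochberg at 0.05), with DESeq2 1.42.0 as an alternative. Standard errors were derived from each log2 change and F value. The fits were run on simulated counts with the same dispersion for all genes, changes only in the more abundant genes and no UMIs concentrated in single cells. These runs therefore do not test the fits on genes such as Ube2c and Cxcl10. Members and gene lists were chosen with earlier results of these data known.

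The genes named were the 8 rule genes, Ikzf2, the genes of the 4 tags, the 15 largest rises and 10 largest falls in all mice, up to 4 per list, and called genes; others were named after their values were seen. Some results on single genes are not reported here.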

Additional observations from a re-analysis of the deposited data

Results flagged for a closer look

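The CD41 tag difference of Helios-deficient mouse 2, at 0.067, stood apart from those of the other 3 mice, which lay between -0.11 and -0.08. 7 values per mouse were examined in this way, and chance flags about 1 in 20. Genotype differences that differed between members and other cells by the edgeR interaction test were those of Ube2c (4.75), Cxcl10 (3.23), Ifi27l2a (1.63) and Actb (0.42), as log2 values. Among barcodes the authors left out, 22 of 372 with a single-mouse call (5.91%), 9 of 231 called doublets (3.90%) and 5 of 35 with no hashtag call (14.3%) reached the lowest member score. Their median gene UMIs were 1896, 12133 and 6056, and the part of depth in these shares was not tested.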

How the results depend on the processing

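The member share difference (0.14 points) turned to -0.33 with a score without Isg15 and to -0.0075 without cells holding mature transcripts outside Nkg7 and Cd79b, an alternative added after seeing the data, and ran from -0.82 to 1.11 without each mouse. Without mature transcripts CD48 was -0.0189 and the hashtag -0.0854. Against UMI-matched cells CD48 turned to 0.0145 and CD41 to 0.00023. As shares of tag UMIs CD150 was 0.12, CD41 0.11 and CD135 0.19, and by medians CD41 was 0.00093 and CD135 -0.0096. CD135 was -0.0031 with 300 cells and -0.0105 without cells under 5000 UMIs, and ran from -0.0344 to 0.0506 without each mouse. The hashtag kept its sign in all 15 alternatives. Genes called in members (5) were 0 without Isg15 (176 at an unadjusted p under 0.05, edgeR), 9 without Irf7, 10 without a filter, 0 by DESeq2 and 10 to 14 without each mouse. Interaction calls (4) were 10 with 300 cells, 7 with the thinned score, 8 without Irf7, 1 without mature transcripts, 7 without cells under 5000 UMIs, 10 without the robust option, 0 by DESeq2 and 3 to 6 without each mouse. Calls in other cells (153) were 291 without a filter, 69 without the robust option, 35 by DESeq2 and 123 to 567 without each mouse, with 321 and 567 without Helios-deficient mice 1 and 2. Ube2c turned to -2.15 without mature transcripts and ran from -6.29 to 10.65 without each mouse, and Cxcl10 turned to -0.76 with the thinned score. Genes 2-fold higher (50) were 24 without mature transcripts and 52 to 78 without each mouse. Genes 2-fold lower (62) were 24 with 300 cells, 12 with the thinned score, 27 without mature transcripts, 29 without cells under 5000 UMIs and 72 to 97 without each mouse. Of the interferon-stimulated list (25), 13 were called without mature transcripts, 16 without cells under 5000 UMIs and 23 to 37 without each mouse. With a mouse left out, fewer mice have to agree for these 2-fold counts. The mature transcript alternative removed 62 members and 2012 other cells, mostly through Nkg7, which 64.4% of kept cells held. The causes were not tested. No paired analysis was possible because the mouse numbers only name the mice in the order of their hashtags, and no label ties a mouse of 1 genotype to a mouse of the other by litter, batch or day. Members' sums of 137816 to 391690 UMIs limit what could be called.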

Other observations

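Chemokine RNA in members sat in few cells. Ccl5 had 139 UMIs in 11 members, 95 of them in 1 cell of Helios-deficient mouse 2 with 17 in the next. Ccl4 had 128 UMIs in 45 members, 61 of them in 1 cell of Helios-deficient mouse 1 with 6 in the next. Ccl3 was spread more evenly, with 30 UMIs in 20 members and at most 6 in a cell. Cd69, an early activation marker outside the lists, had 51 UMIs in 24 members and was 4.12-fold higher than in other cells, 15 of these UMIs in 1 cell of Helios-deficient mouse 1. Rgs1, a regulator of chemokine receptor signalling, had 157 UMIs in 67 members and was 2.58-fold higher than in other cells. It stood at 151 CPM in members and 92.2 CPM in UMI-matched cells, a log2 ratio of 0.71.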
